A study of Mus musculus with 3 samples.

Results

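The genes described here are the histone genes of the mouse histone clusters, the array's gene names that begin with Hist1h, Hist2h, Hist3h or Hist4h. They number 49 of 34827 gene names on the array and are covered by 57 probes of 60 bases. Where a gene had several probes, which was so for 7 of the 49, the brightest one, by mean log2 signal on the 3 arrays, gave the gene's value. By class there were 6 genes for the linker histone H1, 14 for H2A, 12 for H2B, 8 for H3 and 9 for H4. By the cluster given in their names, 37 genes belong to Hist1 on chromosome 13, 8 to Hist2 on chromosome 3, 3 to Hist3 on chromosome 11 and 1 to Hist4 on chromosome 6. The probe of Hist1h2al, which is counted in Hist1, lies far from the others of that cluster.

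The study measured RNA of HoxA9-Meis1 AML cells, a mouse acute myeloid leukaemia of strain C57Bl/6 that carries the names of the homeobox factors HoxA9 and Meis1; how these were introduced is not given in the sources used here. All cells came from bone marrow and were cultured in SFEM, a serum-free medium, for 24 h. One culture was untreated, one received the compound Pyrydopyrazine A2 at 3.4 µM, and one received retinoic acid (RA) together with 1α-hydroxy vitamin D3 (D3V), each at 10 µM. Total RNA of each was amplified with a low-input kit, labelled with Cy3 and hybridized to 1 Agilent one-colour array per condition, to set each treatment's expression signature against untreated cells. With 1 array per condition there is no replicate check and no test, and all differences below are those of single arrays. The labels give a strain and a tissue but no number of animals or cultures, and a bulk extract cannot tell fewer cells of a type, such as cells in S phase, from less RNA per cell.

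The main histone mRNAs are made in S phase, when new DNA has to be packed into nucleosomes of H2A, H2B, H3 and H4, with H1 bound to the linker between them. Most of them carry no poly(A) tail: they end just after a conserved stem-loop, which the stem-loop binding protein Slbp holds for processing, export, translation and decay. A smaller amount of longer, polyadenylated histone mRNA is known in differentiated and non-dividing cells. The primer used to copy the RNA is not given in the sources used here, so it is not known which of these forms the arrays detected best.

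Some facts of the arrays bear on all values. Of 59305 spots that were not controls, 46.0% to 46.8% were well above background on each array, none was saturated, and replicate spots of one probe had a median SD of 0.0606 to 0.0703 on the log2 scale. The sources name the treated arrays differently: the column called RA plus D3V in the authors' deposited value table has the ranks of the scanner file called A2, and the reverse (Spearman 1 over 62976 spots in both cases). Cyp24a1 and Cyp26a1, the enzymes that degrade active vitamin D and retinoic acid and that those agents are known to induce, were well above background on the A2 array and on neither of the others. This pair was picked with its values known. The treated arrays are called the A2 array and the RA plus D3V array after their scanner files' labels, which source is right was not decided, and a direction given for an array may belong to the other treatment. The value table also holds a second set of control values that matched no scanner file. Differences given below against this second control were taken within the value table, which is quantile normalized. They therefore differ from the other differences in both the control and the scaling. For the 44 histone genes above background on the untreated array, the second control differed from that array by between -0.43 and 0.79 on the log2 scale, with a median of 0.12 and an SD of 0.238 over genes, and 0 of the 44 lay 2-fold apart (2.83% of 18261 genes did).

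Of the markers of myeloid and leukaemia cells, 11 of 12 were well above background on all 3 arrays. Meis1 was not above background on any of them, on its only probe. Markers of T and NK cells (5 of 8 above background on all 3 arrays), B cells (4 of 6), erythroid cells (3 of 8), megakaryocytes (2 of 6) and stroma (2 of 7) were also present. Of their defining genes, Klrb1c, Pax5, Ebf1, Itga2b, Gp1ba, Gp9, Col3a1, Cxcl12 and Cdh5 were above background on no array. Summed signals, relative to the 75th percentile of each array, were, in the order untreated, RA plus D3V, A2, 21.1, 14.2 and 20.2 for T and NK cells, and 22.5, 14.9 and 22.2 for B cells. They were 4.99, 3.07 and 3.07 for erythroid cells, 0.838, 26.8 and 22.5 for megakaryocytes, 2.46, 4.81 and 3.83 for stroma and 1170, 611 and 586 for the myeloid list. Sums rest on their brightest genes. By single genes, T and NK markers were lower on the A2 array in 3 of 6 measured (Cd3d, Cd2 and Gzma, by 2-fold or more, list median -1.11) and on the RA plus D3V array in 2 of 5 (Cd3d and Cd2, list median -0.56). Of all genes measured, 6.4% and 5.04% were 2-fold lower on these arrays. Bounds add Cd3g, at least 3.31-fold lower on the A2 array and 2.4-fold on the other, and Gzma, at least 6.18-fold lower on the RA plus D3V array. In the order A2, RA plus D3V, medians were -0.90 and -0.70 for erythroid markers, 0.16 and -0.03 for B cells and -0.12 and 0.19 for the myeloid list. The part of these cells in the histone values was not tested.

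The stem-loop could be read directly in the probes, and it is shown because it decides which part of a histone transcript a probe sees. The common form of the stem-loop, the 16 bases in capitals in the line of Hist1h3i, occurs exactly in 4 of the 57 histone probes (7.02%) and in 4 of all 55681 probes (0.00718%). Counting copies with up to 2 mismatches and copies cut by an end of the probe, 8 of the 57 (14.0%) hold it. The stretches of 30 bases around it follow, 5′ to 3′ as on the probes, with the stem-loop in capitals.
Hist1h3i: ataacaaaaGGCTCTTTTCAGAGCCccctc
Hist1h3a: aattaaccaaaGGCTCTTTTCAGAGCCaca
Hist2h2bb: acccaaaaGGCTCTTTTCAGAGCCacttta
Hist1h3g: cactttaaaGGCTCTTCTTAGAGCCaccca
Hist1h4m: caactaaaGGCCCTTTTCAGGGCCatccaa
Hist2h2aa2, a second probe: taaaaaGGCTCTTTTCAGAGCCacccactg
Hist1h2ae: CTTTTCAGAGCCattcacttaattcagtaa
Hist1h2ab: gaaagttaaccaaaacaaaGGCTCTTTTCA
In Hist1h3i, Hist1h3a, Hist2h2bb, Hist1h3g and Hist1h4m the stem-loop lies 3 to 6 bases before the 3′ end of the probe, so that the probe lies almost wholly in the stem-looped transcript. In the second probe of Hist2h2aa2 38 of 60 bases lie beyond the stem-loop, and in the probe of Hist1h2ae 48 do.

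A second set of sequences shows why these probes do not read the brightest H2A genes one by one. Each of these probes ends in a stop triplet, at the end of the coding sequence, where the H2A genes are nearly identical. In mm9 they lie, in the order printed, at chr13:22127035-22127094, chr13:23626113-23626172, chr13:21845304-21845363, chr13:21878695-21878754, chr3:96043781-96043840 and chr3:96024378-96024437. Positions of the other probes within exons were not read, since the annotation used is of a later build. Bases that differ from the probe of Hist1h2ah in an alignment without gaps are in capitals.
Hist1h2ah: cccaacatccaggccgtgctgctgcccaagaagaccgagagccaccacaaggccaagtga
Hist1h2af: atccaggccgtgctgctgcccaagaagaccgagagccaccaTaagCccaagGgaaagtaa
Hist1h2ak: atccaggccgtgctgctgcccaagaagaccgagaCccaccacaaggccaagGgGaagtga
Hist1h2an: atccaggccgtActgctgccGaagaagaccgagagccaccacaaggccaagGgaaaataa
Hist2h2aa2: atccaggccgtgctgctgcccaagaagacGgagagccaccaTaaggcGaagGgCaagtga
Hist2h2ac: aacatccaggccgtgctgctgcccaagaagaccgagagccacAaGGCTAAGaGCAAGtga
The probes of Hist1h2af, Hist1h2ak and Hist1h2an differ from that of Hist1h2ah at 3 of 54 aligned bases, and that of Hist2h2aa2 at 5 of 54. Hist2h2ac differs at 13 of 57 without gaps, all near the end. Among the probes that give the gene values, 9 share a run of 30 or more bases with a probe of another gene: the 7 H2A genes Hist1h2af, Hist1h2ag, Hist1h2ah, Hist1h2ak, Hist1h2an, Hist2h2aa2 and Hist2h2ac, and the H3 genes Hist1h3c and Hist1h3f. The values of these probes are uncertain as values of single genes.

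Most histone genes gave slightly less signal in treated than in untreated cells, and few differed by as much as 2-fold. A gene counts as measured where both arrays compared showed its probe well above background, and its level is the log2 signal minus that of the array's 75th percentile. On all 3 arrays 41 genes were above background, on some arrays 4 (Hist1h2ae, Hist1h2al, Hist1h2bg and Hist1h2bp) and on none 4 (Hist1h1d, Hist1h2ac, Hist1h2bq and the pseudogene Hist3h2bb-ps).

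**Figure D1:**
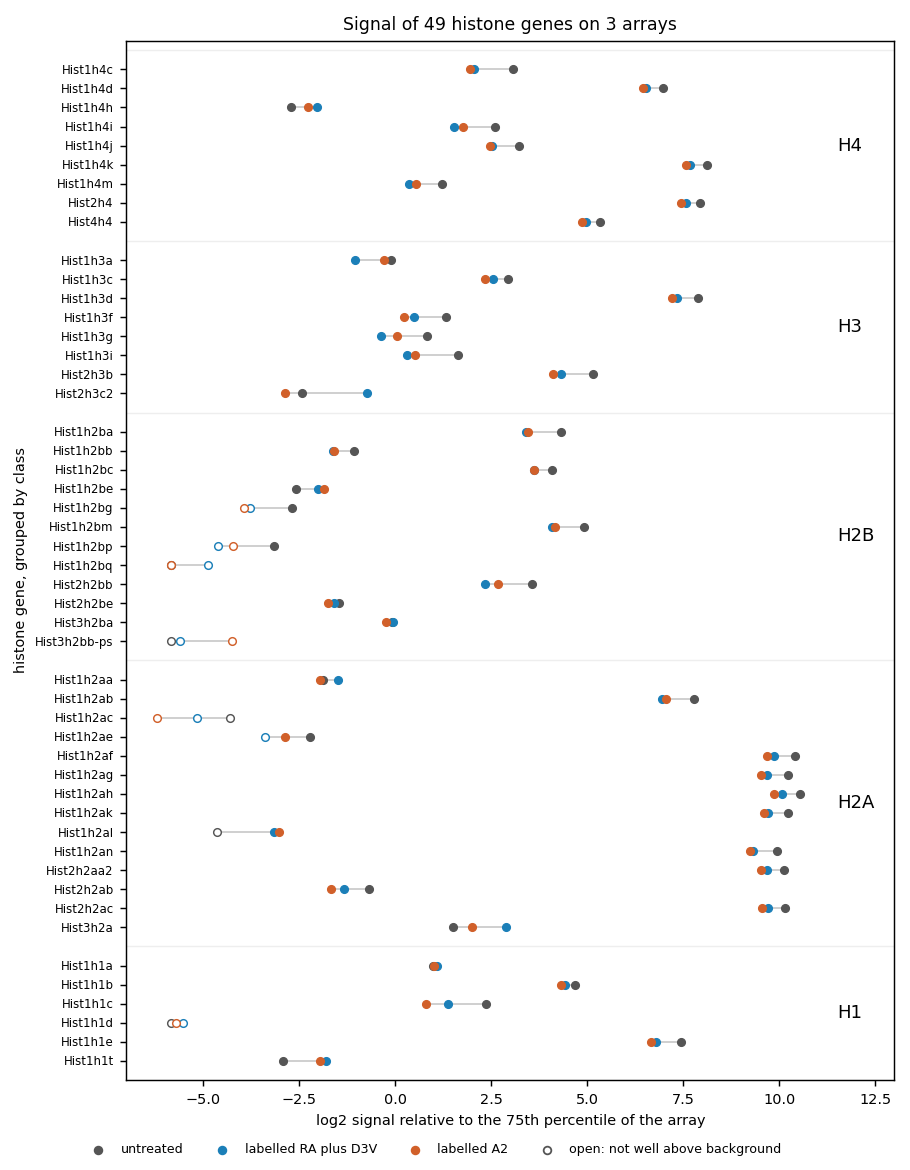
Level of each of the 49 histone genes (log2 signal relative to the 75th percentile of the array, x axis) on the untreated array and the RA plus D3V and A2 arrays, grouped by class and in order of name, 1 point per array with open points for probes not well above background. In most rows the untreated point lies furthest to the right; Hist1h1t, Hist1h2be, Hist1h4h and Hist3h2a run the other way.

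On the A2 array, 42 histone genes were measured against the untreated array. Of these, 5 were at least 2-fold lower (11.9% of the 42, beside 6.4% of 17292 genes) and 0 were at least 2-fold higher (beside 7.96%). At 1.5-fold the numbers were 25 lower (59.5%, beside 16.9% of all genes) and 2 higher (4.76%, beside 17.3%). In all, 37 of the 42 lay below the untreated array (88.1%, beside 52% of all genes), and the median log2 difference was -0.64, a factor of 1.56, where that of all genes was -0.03. The middle 50% of histone genes ran from -0.77 to -0.44, that of all genes from -0.40 to 0.40. The 5 that were 2-fold lower were Hist1h1c, Hist1h3f, Hist1h3i, Hist1h4c and Hist2h3b, and the 5 genes above the untreated array were Hist1h1a, Hist1h1t, Hist1h2be, Hist1h4h and Hist3h2a.

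On the RA plus D3V array, 41 histone genes were measured against the same untreated array, so that both comparisons share their control. Here 5 were at least 2-fold lower (12.2%, beside 5.04% of 17292 genes) and 3 at least 2-fold higher (7.32%, beside 7.82%). At 1.5-fold there were 17 lower (41.5%, beside 15.4%) and 5 higher (12.2%, beside 17.7%). Below the untreated array lay 33 of 41 (80.5%, beside 51.7%), and the median log2 difference was -0.55, a factor of 1.47, against -0.02 for all genes. The lower genes were Hist1h3g, Hist1h3i, Hist1h4c, Hist1h4i and Hist2h2bb, and the higher ones Hist1h1t, Hist2h3c2 and Hist3h2a. The share 2-fold higher was thus near that of all genes, and the shares 2-fold lower rest on 5 genes in each comparison.

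Of the 41 genes measured on all 3 arrays, 16 lay 1.5-fold or more below untreated on each treated array (39.0%, beside 10% of 17017 genes) and 2, Hist1h1t and Hist1h2be, as far above it (4.88%, beside 9.93%). At 2-fold 2 were lower on both, Hist1h3i and Hist1h4c (4.88%, beside 2.82%), and 0 were higher on both (beside 3.51%).

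Against the second control the directions were alike: 38 of 42 lay below it on the A2 array with a median of -0.67, and 35 of 41 on the RA plus D3V array with a median of -0.62. Without the 9 genes whose probes share runs of 30 or more bases, 28 of 33 lay below the untreated array on the A2 array. At 1.5-fold, 16 of these 33 were lower and 2 higher. On the RA plus D3V array 24 of 32 lay below the untreated array, and at 1.5-fold 15 were lower and 5 higher.

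**Figure D2:**
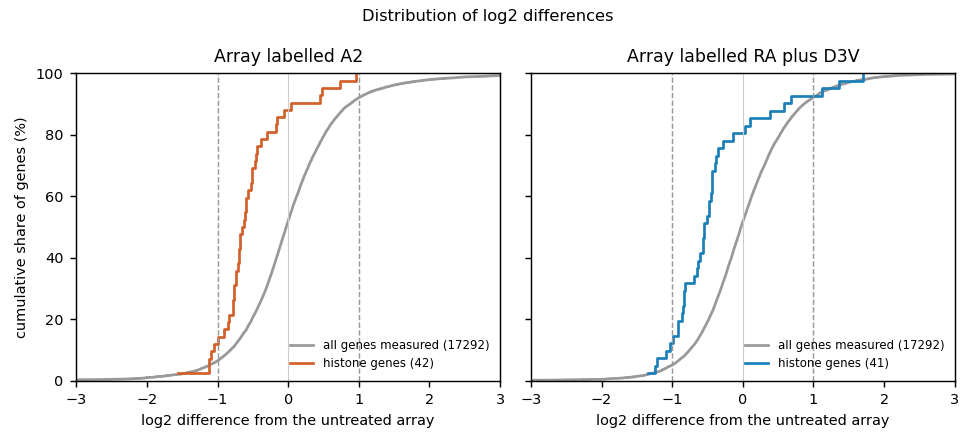
Cumulative share of genes (%, y axis) by log2 difference from the untreated array (x axis, shown from -3 to 3) for the histone genes and for all 17292 genes measured, in 1 panel per treated array, with dashed lines at 2-fold. The histone curves lie to the left of the curves of all genes over most of their course, with medians of -0.64 and -0.55. On the A2 array the highest histone gene lies at 0.97, while 7.96% of all genes lie 2-fold or more above untreated. On the RA plus D3V array the curves come close at 2-fold higher, with 7.32% of histone genes and 7.82% of all genes beyond it.

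Lower values were most regular among brightly measured genes. All 17 histone genes with a mean level of 4 or more lay below the untreated array in both comparisons, with medians of -0.68 on the A2 array and -0.51 on the RA plus D3V array. Among 3991 other genes of such levels 2185 and 2215 lay below it, with medians of -0.05 and -0.05. The 17 histone genes include the bright H2A genes whose probes share long runs of bases, so they are not 17 separate observations. The 11 measured histone genes with a mean level under the 75th percentile had a median of -0.17 on the A2 array, and the 10 measured on the RA plus D3V array had one of 0.20. These levels were used as dividing lines after the values had been seen.

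By class, the medians on the A2 and RA plus D3V arrays were -0.38 and -0.28 for H1 (5 genes measured), -0.67 and -0.51 for H2A (12 and 11), -0.50 and -0.51 for H2B (8), -0.73 and -0.84 for H3 (8) and -0.56 and -0.44 for H4 (9). All 5 classes had a median below 0 on both arrays, and whether classes differ was not tested. By cluster they were -0.68 and -0.56 for Hist1 (31 and 30 genes) and -0.61 and -0.45 for Hist2 (8). The 2 measured genes of Hist3 had medians of 0.17 and 0.70, and Hist4h4 had -0.46 and -0.35.

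**Figure D3:**
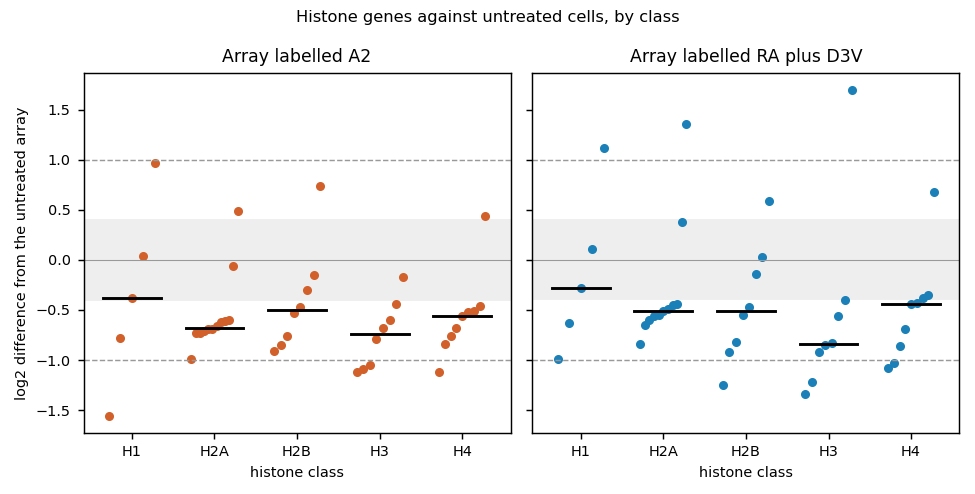
Log2 difference of each measured histone gene from the untreated array (y axis) by class (x axis) on the A2 and RA plus D3V arrays, 1 point per gene with a bar at the class median; the grey band is the middle 50% of all genes and dashed lines mark 2-fold. Every class median lies below 0, from -0.28 for H1 to -0.84 for H3, both on the RA plus D3V array.

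The core histones H3 and H4 form the tetramer at the centre of the nucleosome. In H3, all 8 genes were measured. Levels of a gene are given for the untreated, then the RA plus D3V, then the A2 array, and differences from untreated for RA plus D3V first. The lowest differences in that class belonged to Hist1h3i (probe at chr13:21874784-21874843, build mm9), at levels of 1.64 on the untreated array, 0.30 on the RA plus D3V array and 0.52 on the A2 array. Its differences were -1.34 and -1.12, so both treated arrays lay more than 2-fold below the untreated one, although against the second control the difference on the A2 array was -0.97. Its probe is one of those that end just after the stem-loop.

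Hist1h3f read 1.33, 0.48 and 0.24, which made it 2-fold lower on the A2 array only (-1.09, beside -0.85). Hist1h3g read 0.84, -0.38 and 0.05 and was 2-fold lower on the RA plus D3V array only (-1.22, beside -0.79). Hist2h3b read 5.16, 4.33 and 4.11 and was 2-fold lower on the A2 array (-1.05, beside -0.83, and -0.99 against the second control). In all 3 genes both treated arrays lay on the same side of the untreated one, and single thresholds part values that are close to each other. Hist1h3d, with the brightest H3 probe, read 7.89, 7.33 and 7.21, differences of -0.56 and -0.68. Hist1h3a read -0.12, -1.05 and -0.29: only the RA plus D3V array was low, and the difference of 0.75 between the treated arrays made it the one histone gene at least 1.5-fold higher on the A2 array than on the RA plus D3V array.

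Of 9 H4 genes, all measured, 8 lay below the untreated array on both treated arrays. Hist1h4c (chr13:23790223-23790282) read 3.06 on the untreated array, 2.04 on the RA plus D3V array and 1.94 on the A2 array, differences of -1.03 and -1.12. Both treated arrays were about equally low, at -0.92 and -1.06 against the second control. Hist1h4i read 2.60, 1.52 and 1.76, differences of -1.08 and -0.84. Its other probes read 2.17, 1.23 and 1.40, and 2.13, 1.45 and 2.19, so that on the A2 array one of the 3 probes of this gene lay level with the untreated array (0.06).

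The brightest H4 probes, those of Hist1h4k and Hist2h4, read 8.12, 7.68 and 7.56, and 7.95, 7.57 and 7.44. They lay below the untreated array by under 1.5-fold on both treated arrays (-0.44 and -0.56, and -0.38 and -0.51). The dimmer second probes of these genes lay further below it, at -0.59 and -0.60 for Hist1h4k and -0.89 and -1.15 for Hist2h4. Hist4h4 on chromosome 6, the only gene of its cluster, read 5.32, 4.97 and 4.86. Hist1h4h alone ran the other way, at -2.72, -2.04 and -2.27, that is, 0.68 above the untreated array on the RA plus D3V array and 0.44 on the A2 array. Against the second control its differences were 0.09 and 0.00.

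H2A and H2B form the dimers that flank the tetramer. The 7 H2A probes of nearly identical sequence printed or named above gave like values: Hist1h2ah read 10.55, 10.06 and 9.86, Hist1h2af 10.41, 9.86 and 9.68, and the other 5 lay between 9.93 and 10.24 on the untreated array. Their differences lay between -0.60 and -0.44 on the RA plus D3V array and between -0.73 and -0.60 on the A2 array. Since they share long runs of bases, these probes are not 7 separate observations. Hist1h2ak has a second probe that shares no more than 14 bases with another gene's, and it read 7.45, 6.63 and 6.46, differences of -0.81 and -0.99 where the shared probe gave -0.51 and -0.62. Without the 9 genes whose probes share such runs, the histone medians were -0.56 on both treated arrays. Hist1h2ab, whose probe shares no more than 15 bases with a probe of another gene, read 7.79, 6.95 and 7.06, differences of -0.84 and -0.73.

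In H2B, Hist1h2bm read 4.92, 4.09 and 4.16, differences of -0.82 and -0.76. Hist2h2bb read 3.57, 2.33 and 2.67 and was 2-fold lower on the RA plus D3V array only (-1.25, beside -0.91). Hist1h2bc, one of the H2B genes known to give polyadenylated transcripts in differentiated cells, read 4.09, 3.62 and 3.62, a difference of -0.47 on both arrays. Another such gene, Hist2h2be, read -1.46, -1.6 and -1.76, differences of -0.14 and -0.30, and against the second control it lay above, by 0.27 and 0.21. Hist1h2be was above the untreated array on both treated arrays, at -2.59, -2.0 and -1.85 (0.59 and 0.74), and under 1.5-fold above the second control on both (0.25 and 0.50).

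For genes above background on some arrays, a fold is a lower bound: the ratio of the bright signal to the higher of the dim probe's own signal and the lowest signal above background on that array. Hist1h2bg was above background on the untreated array only and at least 2.11-fold lower on the RA plus D3V array and at least 2.38-fold lower on the A2 array. Hist1h2bp, also seen on the untreated array alone, was at least 2.08-fold lower on both. Hist1h2ae was not above background on the RA plus D3V array, at least 2.27-fold below the untreated one, and lay at -0.66 on the A2 array. Hist1h2al, whose probe lies at chr13:51299277-51299336 and so far from the other Hist1 probes, was seen on both treated arrays and not on the untreated one, at least 1.81-fold higher on the RA plus D3V array and at least 1.99-fold higher on the A2 array. Against the second control, Hist1h2al lay under 1.5-fold higher on both, at 0.16 on the RA plus D3V array and 0.46 on the A2 array.

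The H1 genes differed in direction among themselves. Hist1h1c, a gene for a somatic H1 (chr13:23832018-23832077), read 2.37 on the untreated array, 1.38 on the RA plus D3V array and 0.81 on the A2 array. The arrays stood apart in that order, with differences of -0.99 and -1.56; no other histone gene measured was as low on the A2 array. With another background correction (normexp) the difference on the RA plus D3V array was -1.02, just past 2-fold. Hist1h1e read 7.43, 6.79 and 6.65, differences of -0.63 and -0.78, and Hist1h1b 4.69, 4.41 and 4.31, differences of -0.28 and -0.38. Hist1h1a lay at 0.11 and 0.04 from the untreated array, and at -0.43 and -0.56 against the second control.

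Hist1h1t, the H1 of male germ cells, was higher: it read -2.92 on the untreated array, -1.80 on the RA plus D3V array and -1.96 on the A2 array, differences of 1.12 and 0.97. This call depends on the setting, since the difference on the RA plus D3V array was 0.60 with normexp, 0.92 after quantile normalization and 0.32 against the second control. Of the other germ cell genes, the H2A gene Hist1h2aa read -1.88, -1.5 and -1.95 and lay within 1.5-fold on both arrays. Its H2B neighbour Hist1h2ba read 4.32, 3.40 and 3.47 and was lower on both (-0.92 and -0.85), like most somatic genes. Hist3h3 is not among the gene names of the array.

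Histone genes were highest against untreated cells at a few probes of Hist2 and Hist3 on the RA plus D3V array. The H3 gene Hist2h3c2 (chr3:96042034-96042093) read -2.44 on the untreated array, -0.74 on the RA plus D3V array and -2.87 on the A2 array. Only the RA plus D3V array was high, by 1.70 against the untreated array and by 1.36 against the second control. With normexp the difference from the untreated array was smaller, at 1.07. The H2A gene Hist3h2a (chr11:58768954-58769013) read 1.51, 2.88 and 2.0, and was higher by 1.36 on the RA plus D3V array (1.27 against the second control) and by 0.49 on the A2 array. Its neighbour Hist3h2ba read -0.08, -0.06 and -0.24, within 0.15 of the untreated array on both. By the value table's own labels the high column is the one called A2, at 1.36 for Hist2h3c2 and 1.27 for Hist3h2a against the table's control.

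The second probe of Hist2h2aa2, which does not give that gene's value, showed the same pattern. This probe (chr3:96043669-96043728), most of which lies beyond the stem-loop, read 0.97 on the untreated array, 2.78 on the RA plus D3V array and 1.21 on the A2 array. The coding probe of the same gene (chr3:96043781-96043840), 52 bases away on the genome, read 10.13, 9.68 and 9.53. On the RA plus D3V array the 2 probes therefore lay on opposite sides of the untreated array, at 1.80 (3.49-fold higher) and -0.45. The probe of Hist2h3c2 lies 1575 bases from the second probe of Hist2h2aa2. Hist1h2ae is the other gene whose probe lies mostly beyond the stem-loop. It was not above background on the RA plus D3V array, at least 2.27-fold below the untreated one. These 2 probes thus differed in direction, and the part of their place beyond the stem-loop was not tested.

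**Figure D4:**
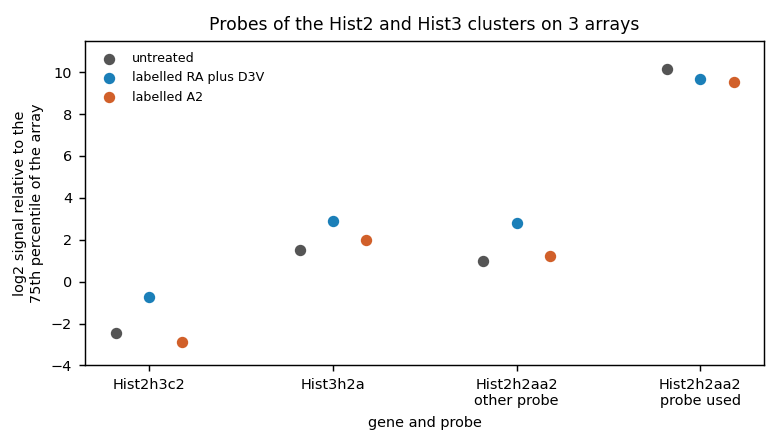
Level (log2 signal relative to the 75th percentile of the array, y axis) of Hist2h3c2, Hist3h2a and both probes of Hist2h2aa2 on the 3 arrays, 1 point per array. The RA plus D3V array is the highest for the first 3 probes, by 1.70, 1.36 and 1.80 over the untreated array, and lies 0.45 below it for the coding probe of Hist2h2aa2.

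Set against each other, the treated arrays differed little for most histone genes. Of 42 measured, 1 was at least 2-fold lower on the A2 array than on the RA plus D3V array (2.38%, beside 4.03% of 17643 genes), Hist2h3c2 at -2.13 (-1.06 with normexp), and 0 were higher (beside 3.8%). At 1.5-fold Hist3h2a joined it (-0.88), which made 2 lower (4.76%, beside 11.1%), and Hist1h3a was the 1 that was higher (2.38%, beside 8.98%). The median was -0.11, and that of all genes -0.02. These shares are below those of all genes. The 6 measured genes whose probe holds the stem-loop all lay above 0 here, from 0.10 in Hist1h2ab to 0.75 in Hist1h3a, with a median of 0.28. Of the 36 whose probe lacks it 29 lay below 0, with a median of -0.14. Against untreated cells, the genes with such probes had medians of -1.07 on the RA plus D3V array (6 genes, of which Hist1h3g, Hist1h3i and Hist2h2bb were 2-fold lower) and -0.73 on the A2 array (7 genes), and the others -0.47 and -0.60 (35 genes each). The second probe of Hist2h2aa2 also holds the stem-loop but is not counted here, since it does not give its gene's value. It went the other way, at 2.78 on the RA plus D3V array and 1.21 on the A2 array. Its differences from untreated were 1.80 and 0.24. The stem-loop was searched after the values had been seen, the groups are small, and the difference between them was not tested.

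Promoters of the histone genes are shown for 2 genes that were among the lowest and 2 that were highest on the RA plus D3V array. They are the 150 bases before the start in RefSeq's annotation of GRCm38.p6, a later build than the probes, and capitals mark 4 motifs searched on both strands: the CCAAT box, the TATA box in the form TATAAA, the octamer in the form ATTTGCAT and, known from H1 promoters, AAACACA. The regions are chr13:23738657-23738806 (plus strand), chr13:21783398-21783547 (minus), chr11:58954535-58954684 (plus) and chr3:96239128-96239277 (minus).
Hist1h1c: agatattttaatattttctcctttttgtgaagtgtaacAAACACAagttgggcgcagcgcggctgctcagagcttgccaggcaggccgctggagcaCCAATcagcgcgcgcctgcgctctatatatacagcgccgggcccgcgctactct
Hist1h3i: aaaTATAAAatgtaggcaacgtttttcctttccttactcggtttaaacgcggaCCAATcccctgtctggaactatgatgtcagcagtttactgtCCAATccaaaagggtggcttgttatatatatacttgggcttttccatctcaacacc
Hist3h2a: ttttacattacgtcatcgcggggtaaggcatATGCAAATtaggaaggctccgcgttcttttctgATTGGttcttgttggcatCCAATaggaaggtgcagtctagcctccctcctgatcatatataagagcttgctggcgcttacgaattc
Hist2h3c2: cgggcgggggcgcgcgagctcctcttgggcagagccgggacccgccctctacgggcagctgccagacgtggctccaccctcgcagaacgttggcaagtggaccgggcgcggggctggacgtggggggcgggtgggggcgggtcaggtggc
In these 150 bases the promoter of Hist2h3c2 held none of the 4 motifs, although its wider window of 300 bases, described below, held a CCAAT box. None of the 4 motifs lay in the same 150 bases of Hist1h4h, Hist1h4j and Hist4h4. Of these, Hist1h4j and Hist4h4 lay below the untreated array on both treated arrays and Hist1h4h above it. Over windows of 300 bases (250 before the start and 50 after), the CCAAT box occurred in 36 of 42 histone promoters in the table (85.7%) and in 41.1% of 27025 genes, TATAAA at any place in 25 (59.5%) and 15.7%, the octamer in 13 (31.0%) and 1.97%, and AAACACA in 9 (21.4%) and 8.22%. The octamer was found in 7 of 13 H2A and 6 of 9 H2B promoters and in 0 of the others, AAACACA in 5 of 6 H1 promoters, and the CCAAT box in every H1, H2A, H2B and H3 promoter of the table and 2 of 8 H4 promoters. These matches describe the letters in the windows and not the binding of any factor.

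Genes that work with histones were read from lists chosen with earlier results of these data known. Beside the counts of these lists stand the shares of all 17292 genes measured. On the A2 array 6.4% were 2-fold lower and 7.96% higher, and on the RA plus D3V array 5.04% and 7.82%. The variant histone genes outside the clusters, many of which are made outside S phase and carry poly(A) tails, had 0 of 12 measured genes 2-fold lower and 0 higher on the A2 array, with a median of -0.30. The brightest of them, H2afj, has a probe that shares 38 bases with that of Hist2h2aa2, so this list is not wholly separate from the clusters. H2afj read 10.33, 9.79 and 9.63, differences of -0.54 on the RA plus D3V array and -0.70 on the A2 array. H2afy3, which is not among those 12, was not above background there and at least 4.57-fold lower than on the untreated array. On the RA plus D3V array 3 of 13 were 2-fold lower and 1 higher, with a median of -0.43. The lower ones were the linker variant H1fx, the centromeric H3 variant Cenpa and again H2afy3 (-1.16), and the higher one was the oocyte variant H1foo (1.16).

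H1fx read -0.42 on the untreated array, -3.42 on the RA plus D3V array and 0.06 on the A2 array, a difference of -3.0 on the former and 0.48 on the latter. Cenpa read 3.93, 2.69 and 4.27, differences of -1.24 and 0.34. In both, only the RA plus D3V array was low. H2afx, the variant phosphorylated at DNA breaks, lay at -0.29 and -0.80 on the RA plus D3V and A2 arrays, and H2afz, found at gene starts, at -0.55 and -0.32. The H3.3 genes differed: H3f3a lay at 0.08 and 0.00, and H3f3b at -0.61 and -0.74. H1f0, the linker histone of resting cells, lay at -0.43 and -0.47.

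Of 19 measured genes of histone gene transcription and mRNA end processing, 0 were 2-fold lower and 0 higher on either array, with medians of -0.15 on the RA plus D3V array and -0.25 on the A2 array. Slbp itself read 1.6, 1.24 and 1.29, differences of -0.36 and -0.31. Lsm11, a part of the U7 snRNP that cuts histone precursors, was the lowest on both (-0.91 and -0.99). Cpsf2, a subunit of the cleavage complex, lay at -0.88 and -0.65, and Eri1, an exonuclease that trims the stem-loop, at -0.89 and -0.25. Npat, the coactivator of histone gene transcription, was not above background on any array.

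Among 20 histone chaperones and importers, 1 was 2-fold lower on the RA plus D3V array (beside 5.04% of all genes) and 2 on the A2 array (beside 6.4%). These counts are near what the shares of all genes give. The medians were -0.28 and -0.25. Asf1a, which carries H3 and H4, was lower on both (-1.09 and -1.18), and the importin Ipo4 on the A2 array (-1.24, beside -0.52). Chaf1b, a subunit of the chromatin assembly factor, lay above untreated at 0.53 and 0.66. The highest on the RA plus D3V array was the H3.3 chaperone partner Atrx (0.84, and 0.28 on the A2 array).

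DNA replication and mitosis genes did not go together. Of 27 measured replication genes 0 were 2-fold lower on the RA plus D3V array and 1, Tyms, on the A2 array (-1.03), and the medians were -0.05 and 0.00. E2f1, an activator of S phase genes, was the highest in both (0.75 and 0.65). Of 14 measured mitosis genes 11 were 2-fold lower on the RA plus D3V array (beside 5.04% of all genes) and 6 on the A2 array (beside 6.4%). All 14 lay below the untreated array on both, and the medians were -1.39 and -0.95. Cdc20, an activator of the anaphase-promoting complex, was the lowest at -1.89 and -1.41. The histone medians of -0.55 and -0.64 thus lay between those of the replication and mitosis lists on both arrays. Whether the lists differ was not tested, and the part of the cell cycle in the histone values was not tested.

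**Figure D5:**
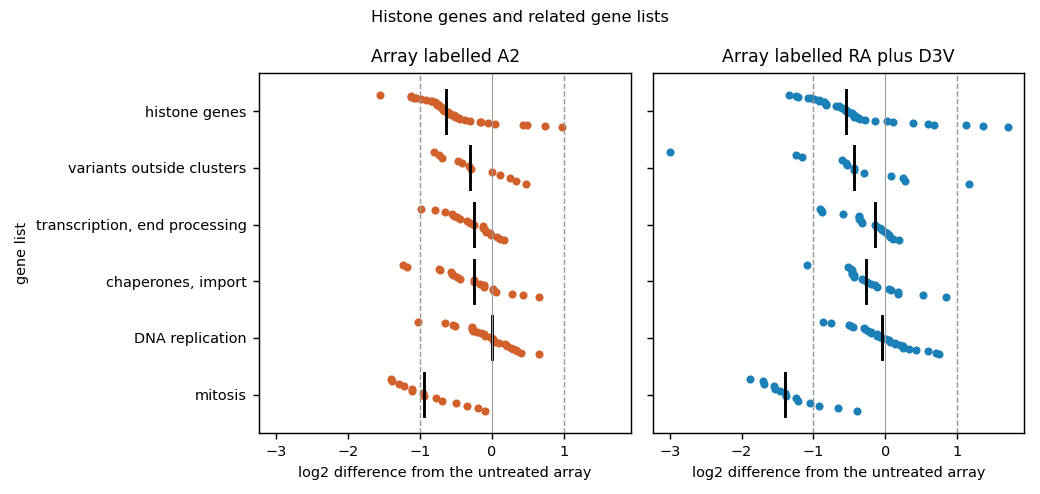
Log2 difference from the untreated array (x axis) for the measured histone genes and 5 related gene lists (y axis) on the A2 and RA plus D3V arrays, 1 point per gene with a bar at the list's median and dashed lines at 2-fold. The histone medians of -0.64 and -0.55 lie between those of the DNA replication list (0.00 and -0.05) and the mitosis list (-0.95 and -1.39).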

How the data were processed

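Each of the 3 conditions was measured on 1 one-colour array. Per the labels, total RNA was treated with DNase, amplified with a low-input kit and labelled with Cy3. Feature Extraction 11.5.1.1 (Agilent), per the submitters' processing notes, made the deposited scanner output, an intensity per spot, with probe positions in mm9 per the file headers. The authors' deposited value table holds intensity on a linear scale, and its control column served as the second control. The deposited flags, scanner values of 0 or 1, mark spots well above background, saturated or uneven.

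Control spots and 25 uneven spots were left out, spots of a probe were averaged, and the log2 of each array's 75th percentile was subtracted. Current symbols were matched in RefSeq's GRCm38.p6 table by accession (45 of 49) or synonym (4). Probes were read for stem-loops and for runs of 30 bases shared with other genes. No test across samples was run. The counting of genes past 2-fold was tested on simulated data. Python, R 4.3.3 and limma 3.58.1 (normexp) were used.

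Members and lists were chosen with earlier results of these data known. The value of 1 marker gene is not reported here. Named members were the most changed past 2-fold and the 2 brightest of each class, those with bounds, and preset germ cell and polyadenylated genes; of other lists, up to 3 highest and 3 lowest and 8 preset genes. Other genes named were chosen after their values were seen. Alternatives were normexp with an offset of 50, median and quantile scaling, other filters on dim probes, the mean over probes, shared probes left out, the second control, the value table's labels and 1.5-fold.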

Additional observations from a re-analysis of the deposited data

Results flagged for a closer look

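A probe that the gene values leave out stood at least 2-fold above the untreated array. The second probe of the H2A gene Hist2h2aa2, which lies mostly beyond the stem-loop, gave a log2 difference of 1.8 on the RA plus D3V array (levels of 0.97 untreated and 2.78 treated), against 0.24 on the A2 array. Against the second control the differences were 1.74 and 0.07. The coding probe of the gene lay at -0.45 and -0.60.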

How the results depend on the processing

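No paired analysis was possible because each condition has 1 array, and for the same reason no array could be left out. The median of the histone genes stayed below 0 under every alternative for both treated arrays against untreated, from -0.67 to -0.56 for the A2 array and from -0.67 to -0.51 for the RA plus D3V array, the last at -0.67 with the value table's own labels. Between the treated arrays the median lay between -0.13 and -0.09, except that the value table's labels turned it to 0.12.

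Counts past 2-fold were small and moved with the rule. Without a filter on dim probes, 2 genes were higher and 8 lower on the A2 array, 8 were lower on the RA plus D3V array, and 1 was higher and 2 lower between the treated arrays. With the mean over probes 3 were lower on the RA plus D3V array. With the value table's labels 2 were higher under A2 and 0 under RA plus D3V, and 1 was higher and 0 lower between them. At 1.5-fold there were 2 higher and 25 lower under A2, 5 higher and 17 lower under RA plus D3V, and 1 higher and 2 lower between them. By the value table's labels Hist2h3c2 lay at -0.52 under RA plus D3V and 1.89 higher under A2 than under RA plus D3V, since the columns change places. The cause of the other changes was not tested.

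Signal over background limits the dim genes: 8 of 49 were not above background on every array, and the number of arrays limits the precision of all values.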
